A study of Mus musculus with 6 samples.

Results

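The genes described here are a set of 40 that carry glucose to lactate or pyruvate, or that sense and answer low oxygen through the hypoxia-inducible factors (HIF). They were chosen by name: 23 belong to glucose uptake, glycolysis, pyruvate entry and lactate handling (the glycolysis group), and 17 are HIF subunits, the enzymes that control them and HIF targets (the HIF group). Each gene was read from 1 probe set, the brightest on average over the 6 arrays of those mapped to that symbol alone, which gave a value for 37 of the 40 genes, among 18193 genes measured in this way. *Gpi1* and *Eno1* had no probe set under their symbol, and *Bnip3l* was covered only by 3 probe sets that it shares with a pseudogene.

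Glycolysis splits glucose to pyruvate in the cytosol and yields ATP without oxygen. Macrophages and microglia lean on it when they become activated. The transcription factor HIF1A joins the constitutive subunit ARNT to switch on glucose transporters, glycolytic enzymes and other genes of low oxygen. Prolyl hydroxylases (the EGLN enzymes) use oxygen to mark the HIF alpha subunits for destruction through VHL. *Egln3* is itself a HIF target, so that it forms a feedback arm of the pathway.

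Microglia of SOD1 G93A males were compared with those of WT littermate males, both at postnatal day 90, the early symptomatic age of this model of amyotrophic lateral sclerosis. SOD1 G93A mice carry many copies of a mutant human SOD1 gene under its own human promoter, on a B6SJL background, so that neurones and other glia express it as well as microglia. Cells of the lumbar cord were freed of myelin on sucrose and sorted by flow cytometry for CD11b, with dead cells gated out, and RNA of at least 6 pooled mice was hybridised to each of 3 arrays per genotype. The spread between arrays is therefore the spread between pools, and no array gives the value of 1 mouse.

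The HIF complex binds the core letters ACGTG or GCGTG, and stretches of promoter that hold them are shown for the members that passed the test, to set the letters of genes that were higher beside those of genes that were lower. The windows come from RefSeq (assembly GRCm38.p6), 60 bases each, written 5′ to 3′ in the sense of the gene. Capitals mark each match on either strand, read as ACGTG or GCGTG on the strand of the gene and as CACGT or CACGC where the match lies on the opposite strand. Each window lies around the match nearest to the transcription start upstream of it. The first 5 genes were higher in SOD1 G93A microglia, and *Hk3* and *Pfkp* were lower.
Egln3, chr12:54204065-54204124, minus strand: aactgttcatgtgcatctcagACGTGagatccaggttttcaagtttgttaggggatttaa
Ak4, chr4:101419225-101419284, plus strand: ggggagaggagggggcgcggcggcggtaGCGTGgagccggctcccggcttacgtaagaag
Hif1a, chr12:73907769-73907828, plus strand: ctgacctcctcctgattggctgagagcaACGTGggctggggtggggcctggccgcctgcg
Pfkl, chr10:78009875-78009934, minus strand: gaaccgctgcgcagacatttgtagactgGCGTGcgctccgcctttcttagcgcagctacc
Slc16a1, chr3:104638502-104638561, plus strand: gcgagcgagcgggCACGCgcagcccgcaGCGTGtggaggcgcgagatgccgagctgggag
Hk3, chr13:55021510-55021569, minus strand: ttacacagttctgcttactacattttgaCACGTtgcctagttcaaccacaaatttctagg
Pfkp, chr13:6648772-6648831, minus strand: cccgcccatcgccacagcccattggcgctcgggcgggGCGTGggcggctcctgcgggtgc

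*Tpi1*, which was also higher, had no match upstream of its start. Over the whole promoter window of 250 bases before to 50 after the start, at least 1 match lay in 44 of the 51 windows of the 36 members with an entry (86.3%), in 27 of 33 windows of the glycolysis group and in 17 of 18 of the HIF group. The same held for 9892 of the 18109 windows of all measured genes (54.6%) and for 14380 of 32851 windows of all promoters (43.8%). The palindrome CACGTG counts as an ACGTG match on both strands. Such short letters occur in many promoters, and matches stood in front of genes that were higher and of genes that were lower. A match is a description of sequence and not a measured binding site. *Bnip3l*, *Epas1*, *Ndrg1* and *Slc2a3* had no entry.

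The genotypes differed in single genes of both groups and in both directions. Of the 37 measured members, 6 were higher and 4 lower in SOD1 G93A microglia at an adjusted p under 0.05 (limma, Benjamini-Hochberg over all 18193 genes), whereas 1206 of all genes passed (6.63%), 745 higher (4.09%) and 461 lower (2.53%). The 6 were *Egln3*, *Ak4* and *Hif1a* of the HIF group and *Pfkl*, *Tpi1* and *Slc16a1* of the glycolysis group. The 4 were *Ndrg1* of the HIF group and *Slc2a3*, *Hk3* and *Pfkp* of the glycolysis group. The shares over all genes include 4130 genes with a mean log2 signal below 5, near background, against 1 of the 37 members. Among the 7971 genes with a mean of at least 7, 863 were higher and 494 lower. With that minimum, 4 of 18 genes of the glycolysis group were higher and 3 lower, and 2 of 12 of the HIF group were higher and 1 lower. The values of the genotypes did not overlap in 21 members, with all SOD1 G93A arrays higher in 14 and lower in 7. At an unadjusted p under 0.05, 14 members were higher and 6 lower in limma's test, whereas 21.6% of all genes passed it, 12.7% higher and 8.86% lower. Over all genes, 27.5% did not overlap, 16.6% with SOD1 G93A higher and 10.9% with SOD1 G93A lower. The median log2 fold change (SOD1 G93A minus WT throughout) was 0.13 over the 37 members and 0.02 over all genes. In sorted cells measured in bulk, fewer cells of a type and less RNA per cell cannot be told apart.

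**Figure D1:**
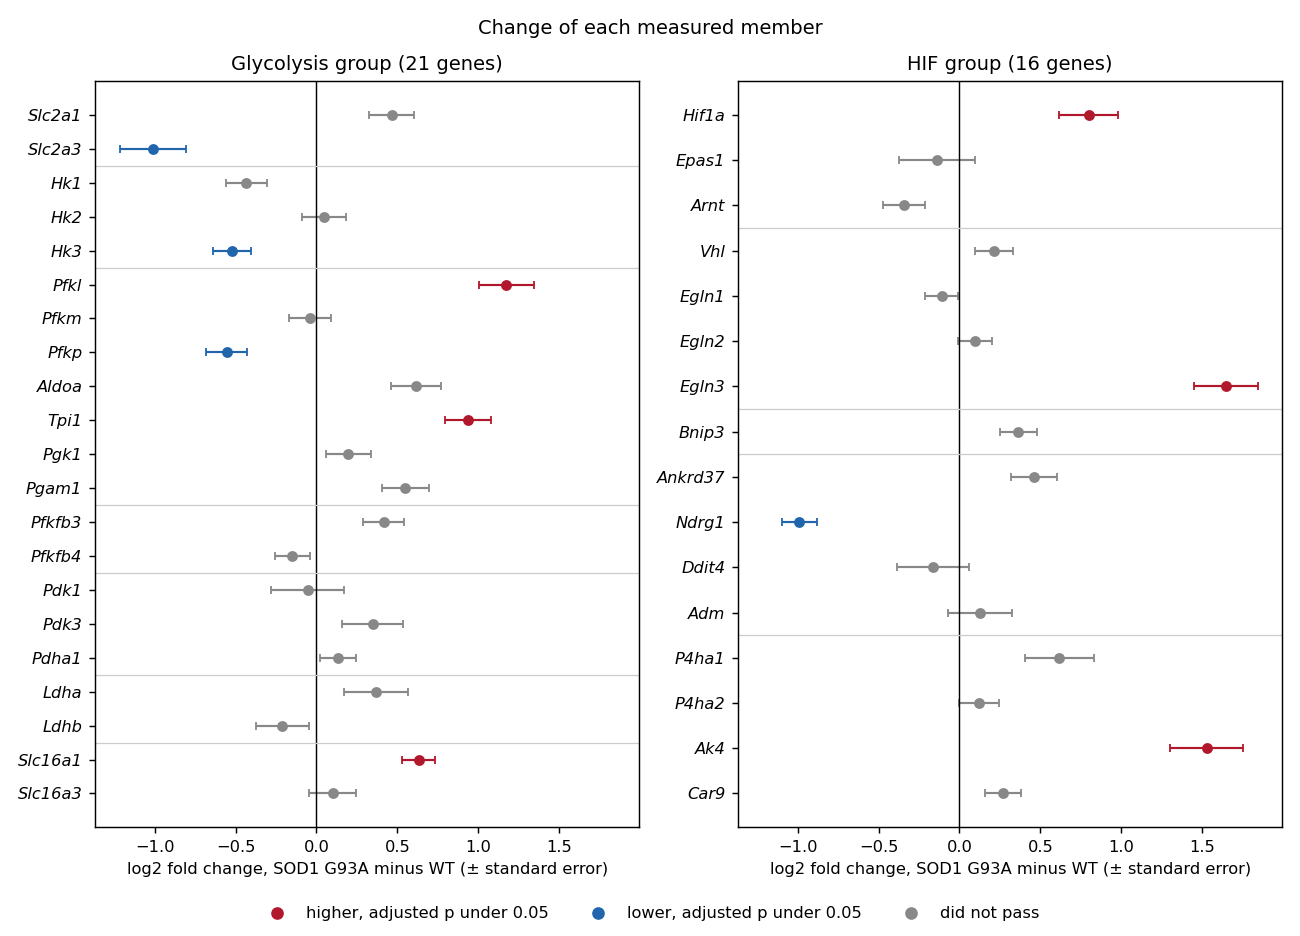
Log2 fold change of each measured gene, SOD1 G93A minus WT, on the horizontal axis with its standard error as the whisker, for 21 genes of the glycolysis group (left) and 16 of the HIF group (right), with grey lines between roles. Red points (6 genes) were higher and blue points (4 genes) lower at an adjusted p under 0.05, and the values run between -1.01 for *Slc2a3* and 1.65 for *Egln3*.

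Among the HIF subunits, *Hif1a*, which encodes the oxygen-regulated alpha subunit, was higher in SOD1 G93A microglia. Its log2 signal was 10.24, 10.92 and 10.81 on SOD1 G93A arrays 1 to 3, against 9.997, 9.90 and 9.67 on the WT arrays. All SOD1 G93A arrays stood above all WT arrays, and SOD1 G93A replicate 1 lay nearest to them. The log2 fold change was 0.80 (standard error, SE, of 0.18, adjusted p = 0.0374, limma), a 1.74-fold rise. The 3 other probe sets of *Hif1a* were higher too, so that the 4 ranged between 0.66 and 0.99, and 3 of the 4 passed among all probe sets. The call of the main probe set was lost without any 1 of 4 arrays, with an adjusted p of 0.128 without SOD1 G93A replicate 2, 0.14 without SOD1 G93A replicate 3, 0.0962 without WT replicate 2 and 0.132 without WT replicate 3, and the adjusted p of the 6 such fits began at 0.00559.

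*Epas1*, which encodes the related subunit HIF2A, did not follow. It measured 6.99, 7.86 and 7.44 on the SOD1 G93A arrays, against 7.18, 7.77 and 7.76 on the WT arrays, and the genotypes overlapped fully, with the array numbered 1 lowest in each genotype. Its log2 fold change was -0.14 (SE 0.23, adjusted p = 0.799, limma), and its second probe set gave -0.16. *Arnt*, the shared partner of both alpha subunits, had a log2 fold change of -0.34 that did not pass (adjusted p = 0.158 from limma), although its SOD1 G93A arrays all lay below the WT arrays. The 4 other probe sets of *Arnt* lay between -0.09 and 0.09.

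Of the 4 oxygen-sensing genes, *Egln3* was the 1 that changed, and its rise was larger than that of any other member. Its log2 signal was 8.19, 8.74 and 8.66 on the SOD1 G93A arrays, against 6.86, 6.57 and 7.22 on the WT arrays. The lowest SOD1 G93A array stood almost 1 log2 unit above the highest WT array. This gave a log2 fold change of 1.65 (SE 0.20, adjusted p = 0.00325, limma), a 3.13-fold rise that ranked 38 among all 18193 genes. A second probe set of *Egln3* was higher by 0.60 without passing (adjusted p = 0.0611 among all probe sets).

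The other oxygen sensors did not pass. *Egln1*, which encodes the main prolyl hydroxylase of most cells, measured 8.87, 9.03 and 9.03 on the SOD1 G93A arrays, against 9.08, 9.10 and 9.09 on the WT arrays. The SOD1 G93A arrays were lower by a narrow margin, with a log2 fold change of -0.11 (SE 0.10, adjusted p = 0.608, limma), whereas its second probe set gave 0.36 and also did not pass. *Egln2* and *Vhl* had log2 fold changes of 0.10 and 0.21, with overlapping genotypes. Missing the threshold does not show that these genes stayed equal.

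Among the HIF targets, 1 of the 9 measured was higher, 1 was lower and 7 did not pass, with a median log2 fold change of 0.27. *Ak4*, a mitochondrial adenylate kinase, was the target that rose. It measured 6.72, 7.28 and 7.25 on the SOD1 G93A arrays, against 5.87, 5.72 and 5.08 on the WT arrays. No array of the genotypes overlapped, and the WT signals lay close to the level of 5 below which signal nears background. Its log2 fold change was 1.53 (SE 0.23, adjusted p = 0.00735, limma), a 2.88-fold rise and the 45th largest of all genes. The 4 other probe sets of *Ak4* did not move together: 1 rose by 0.75 (adjusted p = 0.0361 among all probe sets), and the remaining 3, at 0.03, -0.19 and -0.33, did not pass. The probe set that rose by 0.75 had mean log2 signals of 5.03 in SOD1 G93A and 4.28 in WT, near or below the level of 5. Without the probe sets whose names mark possible cross-hybridisation, the value for *Ak4* became -0.33, and averaging its 5 probe sets gave 0.36 (adjusted p = 0.0585, limma, in a range of 0.000301 to 0.275 over all alternatives), so that both ended the call.

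*Ndrg1*, a stress-responsive gene that low oxygen induces in many cells and that myelinating glia also express, went the other way. Its log2 signal was 8.72, 8.92 and 8.69 on the SOD1 G93A arrays, against 9.80, 9.74 and 9.76 on the WT arrays. The SOD1 G93A arrays were about 1 log2 unit lower, and the arrays within each genotype lay close together. The log2 fold change was -0.99 (SE 0.11, adjusted p = 0.00232, limma), a 1.99-fold fall. A second probe set was lower by 1.17 on the log2 scale (log2 fold change -1.17, adjusted p = 0.0338 among all probe sets), and the 3 others, at -0.47, -0.11 and 0.02, did not pass. Of 12 oligodendrocyte markers, 4 were lower, 0 were higher and 8 did not pass, among them *Mag* at 0.11, whereas 2.53% of all genes were lower. The log2 of their summed signal, a sum of signals before the log that the brightest markers such as *Mbp* dominate, lay between 13.36 and 13.54 on the SOD1 G93A arrays, against 14.13 to 14.78 on the WT arrays (exact two-sided permutation p = 0.1, the smallest that 3 arrays against 3 allow). The part of these cells in the fall of *Ndrg1* was not tested.

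The remaining targets did not pass. *P4ha1*, which encodes a subunit of the collagen prolyl hydroxylase, measured 9.61, 9.72 and 10.14 on the SOD1 G93A arrays, against 8.75, 9.49 and 9.37 on the WT arrays. The SOD1 G93A arrays were all higher, yet the spread between WT arrays was wide, and the log2 fold change of 0.62 had an SE of 0.21 (adjusted p = 0.126 from limma). Its other probe set gave 0.09 with overlapping genotypes, and the mean of both 0.35. *Bnip3*, a mitophagy receptor, *Ankrd37*, an ankyrin-repeat gene that responds to low oxygen, and *Car9*, a membrane carbonic anhydrase, were higher on every SOD1 G93A array without passing, at 0.36, 0.46 and 0.27. *Adm*, which encodes adrenomedullin, *P4ha2* and *Ddit4*, an inhibitor of mTORC1, had overlapping genotypes, with log2 fold changes of 0.13, 0.12 and -0.16, and *P4ha2* lay below a log2 signal of 5. The 3 shared probe sets of *Bnip3l* gave -0.03, -0.05 and -0.19, and none passed.

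**Figure D2:**
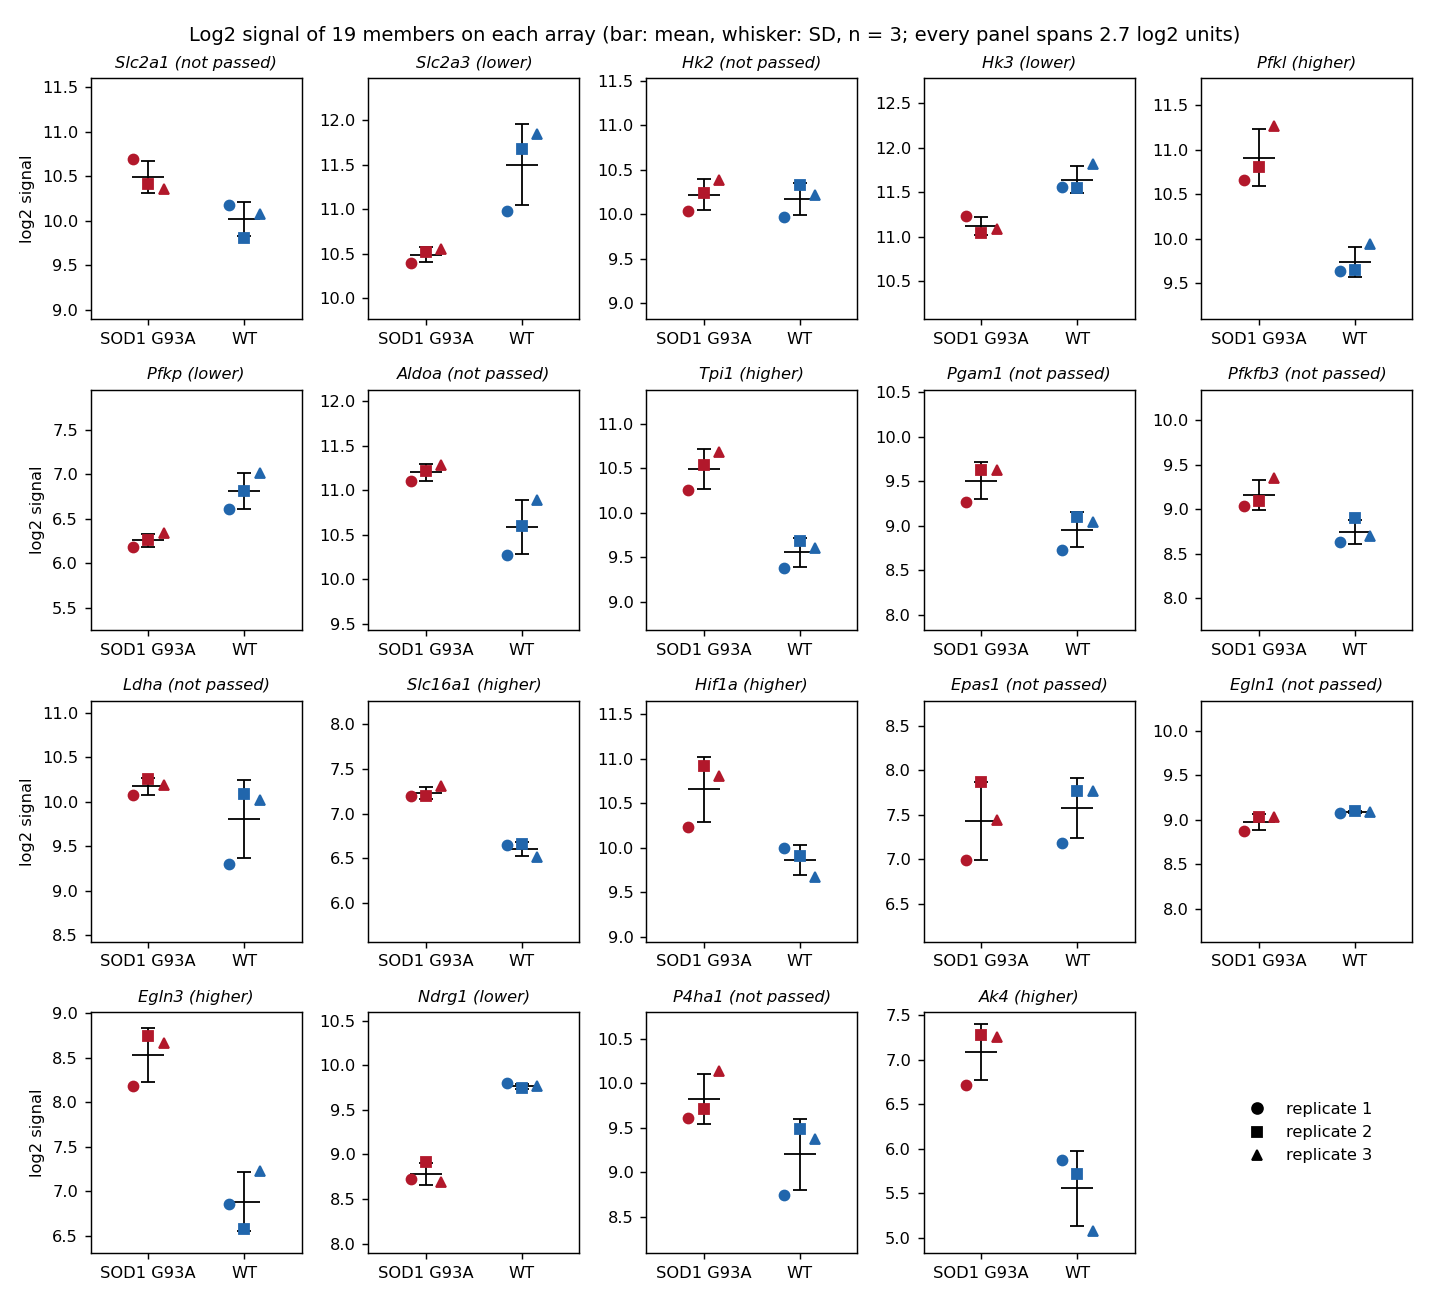
Log2 signal of 19 members on each array (vertical axis, 2.7 log2 units in every panel), with SOD1 G93A in red to the left of WT in blue, and the symbol shape giving the replicate number. The bar is the mean and the whisker the SD of 3 arrays, and the title of each panel gives the result of the limma test. The SOD1 G93A arrays of *Egln3* lie between 8.19 and 8.74, above the WT arrays, whose highest value is 7.22.

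In the glycolysis group, taken here from glucose uptake to lactate export, 3 of the 21 measured genes were higher, 3 were lower and 15 did not pass. The median log2 fold change was 0.13, and the 15 that did not pass ranged between -0.43 and 0.62 (adjusted p between 0.0524 and 0.929 from limma). The 3 falls were lost when SOD1 G93A replicate 2 or 3 or WT replicate 2 or 3 was left out, which left 0 falls in each case. Over all genes, falls numbered 148, 103, 141 and 169 in these fits in place of 461, so that calls were lost throughout.

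The 2 glucose transporters differed in sign, and 1 of them passed. *Slc2a3*, which encodes the high-affinity transporter GLUT3 of neurones and leukocytes, measured 10.40, 10.53 and 10.55 on the SOD1 G93A arrays, against 10.99, 11.68 and 11.84 on the WT arrays. All SOD1 G93A arrays were lower, and WT replicate 1 was the WT array closest to them. A log2 fold change of -1.01 (SE 0.20, adjusted p = 0.0234, limma), a 2.02-fold fall, was found, and a second probe set gave -1.13 (adjusted p = 0.0155 among all probe sets). The 2 others, near or below a log2 signal of 5, gave -0.52 and -0.50 and did not pass. With 1 array left out the adjusted p lay between 0.00158 and 0.0837, and it was 0.0816 without SOD1 G93A replicate 2, 0.0778 without SOD1 G93A replicate 3, 0.0837 without WT replicate 2 and 0.0828 without WT replicate 3.

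*Slc2a1*, which encodes GLUT1, a transporter that HIF induces, had signals of 10.69, 10.41 and 10.36 on the SOD1 G93A arrays, against 10.18, 9.81 and 10.08 on the WT arrays. All arrays of SOD1 G93A were higher, but the gene did not pass on its brightest probe set, with a log2 fold change of 0.47 (SE 0.14, adjusted p = 0.0877, limma). Its 2 other probe sets did pass, at 0.74 (adjusted p = 0.0379 among all probe sets) and 1.01 (adjusted p = 0.0123 among all probe sets). The call of *Slc2a1* therefore differed between its probe sets.

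Of the hexokinases, which trap glucose in the cell, *Hk3*, the form of myeloid cells, was lower. It measured 11.23, 11.04 and 11.09 on the SOD1 G93A arrays, against 11.56, 11.55 and 11.82 on the WT arrays, with no overlap. The log2 fold change was -0.52 (SE 0.12, adjusted p = 0.0353, limma). The name of this probe set marks possible cross-hybridisation. The other probe set of *Hk3*, without such a mark, gave -0.07 with overlapping genotypes (adjusted p = 0.899 among all probe sets, limma). With 1 array left out, the adjusted p of the brightest probe set lay between 0.0389 and 0.124. It was 0.122 without SOD1 G93A replicate 2, 0.124 without SOD1 G93A replicate 3, 0.0749 without WT replicate 2 and 0.118 without WT replicate 3. Some markers of other myeloid cells were lower as well: 5 of 8 monocyte markers, 6 of 10 border macrophage markers and 3 of 11 neutrophil markers passed as lower and 0 of these lists as higher, whereas 2.53% of all genes were lower. Their part in the fall of *Hk3* was not tested.

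The inducible *Hk2* showed no detectable change. Its signals were 10.03, 10.24 and 10.38 on the SOD1 G93A arrays, against 9.97, 10.33 and 10.22 on the WT arrays, and the arrays of the genotypes were interleaved. Its log2 fold change was 0.05 (SE 0.14, adjusted p = 0.89, limma). *Hk1*, the form found in most tissues and in brain above all, had a log2 fold change of -0.43 that did not pass (adjusted p = 0.0837 from limma), with all SOD1 G93A arrays lower.

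Phosphofructokinase, the committed step of glycolysis, is built from subunits that moved in opposite directions. *Pfkl*, the liver-type subunit, measured 10.66, 10.81 and 11.27 on the SOD1 G93A arrays, against 9.63, 9.64 and 9.94 on the WT arrays. All SOD1 G93A arrays were higher, and the log2 fold change of 1.17 (SE 0.17, adjusted p = 0.00675, limma), a 2.25-fold rise, was the largest of the glycolysis group. Its other probe sets differed, with 0.99 (adjusted p = 0.0546 among all probe sets) and -0.02 (adjusted p = 0.984 among all probe sets). The call was lost with the latter, the probe set whose name bears no suffix a_at, s_at or x_at. It was also lost with the mean of all 3 probe sets at 0.71 (adjusted p = 0.0845 from limma, in a range of 0.000362 to 0.983 over all alternatives).

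*Pfkp*, the platelet-type subunit, measured 6.18, 6.25 and 6.33 on the SOD1 G93A arrays, against 6.61, 6.81 and 7.01 on the WT arrays, all lower in SOD1 G93A. The log2 fold change was -0.56 (SE 0.13, adjusted p = 0.0361, limma). A second probe set gave -0.75 without passing (adjusted p = 0.0581 among all probe sets), and the other, at 0.06, lay below a log2 signal of 5. The call was lost in 5 of the 6 fits without 1 array, with an adjusted p of 0.0746 without SOD1 G93A replicate 1, 0.112 without SOD1 G93A replicate 2, 0.0928 without SOD1 G93A replicate 3, 0.102 without WT replicate 2 and 0.118 without WT replicate 3, and it held at 0.0198 without WT replicate 1. *Pfkm*, the muscle-type subunit, had a log2 fold change of -0.04 (adjusted p = 0.91 from limma).

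In the steps that follow, *Tpi1*, which encodes triosephosphate isomerase, was higher. Its signals were 10.25, 10.54 and 10.69 on the SOD1 G93A arrays, against 9.38, 9.69 and 9.60 on the WT arrays, and no array overlapped. *Tpi1* had a log2 fold change of 0.94 (SE 0.14, adjusted p = 0.00828, limma), a 1.91-fold rise, and all 3 probe sets of *Tpi1* passed, between 0.87 and 1.41.

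*Aldoa*, the main aldolase of most tissues, measured 11.10, 11.22 and 11.29 on the SOD1 G93A arrays, against 10.27, 10.60 and 10.89 on the WT arrays. All SOD1 G93A arrays were higher, but the log2 fold change of 0.62 (SE 0.16) missed the threshold at an adjusted p of 0.0524 from limma, and its 5 probe sets, between 0.17 and 1.12, were all positive with 0 passing. *Pgam1*, phosphoglycerate mutase, measured 9.26, 9.63 and 9.62 on the SOD1 G93A arrays, against 8.73, 9.10 and 9.04 on the WT arrays, and its log2 fold change of 0.55 (SE 0.15) also missed it, at an adjusted p of 0.0612 from limma. *Pgk1*, phosphoglycerate kinase, overlapped between the genotypes at a log2 fold change of 0.20 (adjusted p = 0.483 from limma), and its other probe sets, at 0.63 for the 1 without a cross-hybridisation mark and 0.28, did not pass either.

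Among the regulators, *Pfkfb3*, which makes a potent activator of phosphofructokinase, had signals of 9.04, 9.09 and 9.35 on the SOD1 G93A arrays, against 8.63, 8.90 and 8.70 on the WT arrays. Every array of SOD1 G93A was higher, without passing, at a log2 fold change of 0.42 (SE 0.13, adjusted p = 0.0922, limma), and *Pfkfb4* had -0.15. Pyruvate entry into mitochondria was represented by *Pdha1*, a subunit of pyruvate dehydrogenase, and by its inhibitory kinases *Pdk1* and *Pdk3*, whose log2 fold changes were 0.13, -0.05 and 0.35 with overlapping genotypes. Of the 4 probe sets of *Pdk1*, a kinase that HIF induces, 1 rose by 0.68 (adjusted p = 0.0127 among all probe sets), and the brightest was spread over about 1 log2 unit among the WT arrays.

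At the end of the pathway, *Slc16a1*, which encodes the monocarboxylate transporter MCT1, was higher. It measured 7.19, 7.201 and 7.31 on the SOD1 G93A arrays, against 6.64, 6.65 and 6.51 on the WT arrays. The arrays of each genotype lay close together and apart from the other genotype, with a log2 fold change of 0.63 (SE 0.10, adjusted p = 0.0109, limma), a 1.55-fold rise. The adjusted p was 0.0546 without SOD1 G93A replicate 3 and 0.0521 without WT replicate 3, in a range that began at 0.0174 with 1 array left out. *Slc16a3*, the lactate exporter MCT4 that HIF induces, had a log2 fold change of 0.10 (adjusted p = 0.765 from limma).

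*Ldha*, the lactate dehydrogenase subunit that HIF induces, measured 10.07, 10.26 and 10.18 on the SOD1 G93A arrays, against 9.30, 10.09 and 10.01 on the WT arrays. The genotypes overlapped, and WT replicate 1 stood apart from the other WT arrays. *Ldha* had a log2 fold change of 0.37 (SE 0.20, adjusted p = 0.328, limma), and 0.12 without WT replicate 1. *Ldhb* had a log2 fold change of -0.21 on its brightest probe set (adjusted p = 0.531 from limma), while 2 of its 3 other probe sets passed as higher, at 0.58 (adjusted p = 0.0266 among all probe sets) and 0.41 (adjusted p = 0.0486 among all probe sets).

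As a description of how related genes compared, the difference of their log2 signals was taken within each array for 7 pairs. The pairs were chosen after their values were seen, because the members differed, so that the direction was fixed by the choice and no test is given. *Pfkl* minus *Pfkp* was higher in SOD1 G93A than in WT by 1.73, *Pfkl* minus *Pfkm* by 1.21, *Slc2a1* minus *Slc2a3* by 1.48 and *Hk2* minus *Hk3* by 0.57. In the HIF group, *Hif1a* minus *Epas1* was higher by 0.94, *Egln3* minus *Egln2* by 1.55 and *Egln3* minus *Egln1* by 1.76. All pairs were taken from the brightest probe set of each gene, and other probe sets can differ. Those of *Pfkl* gave log2 fold changes of 0.99 and -0.02, and that of *Hk3* gave -0.07. The second probe sets of *Egln3* and *Egln1* gave 0.60 and 0.36, which lie closer together than the brightest ones.

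**Figure D3:**
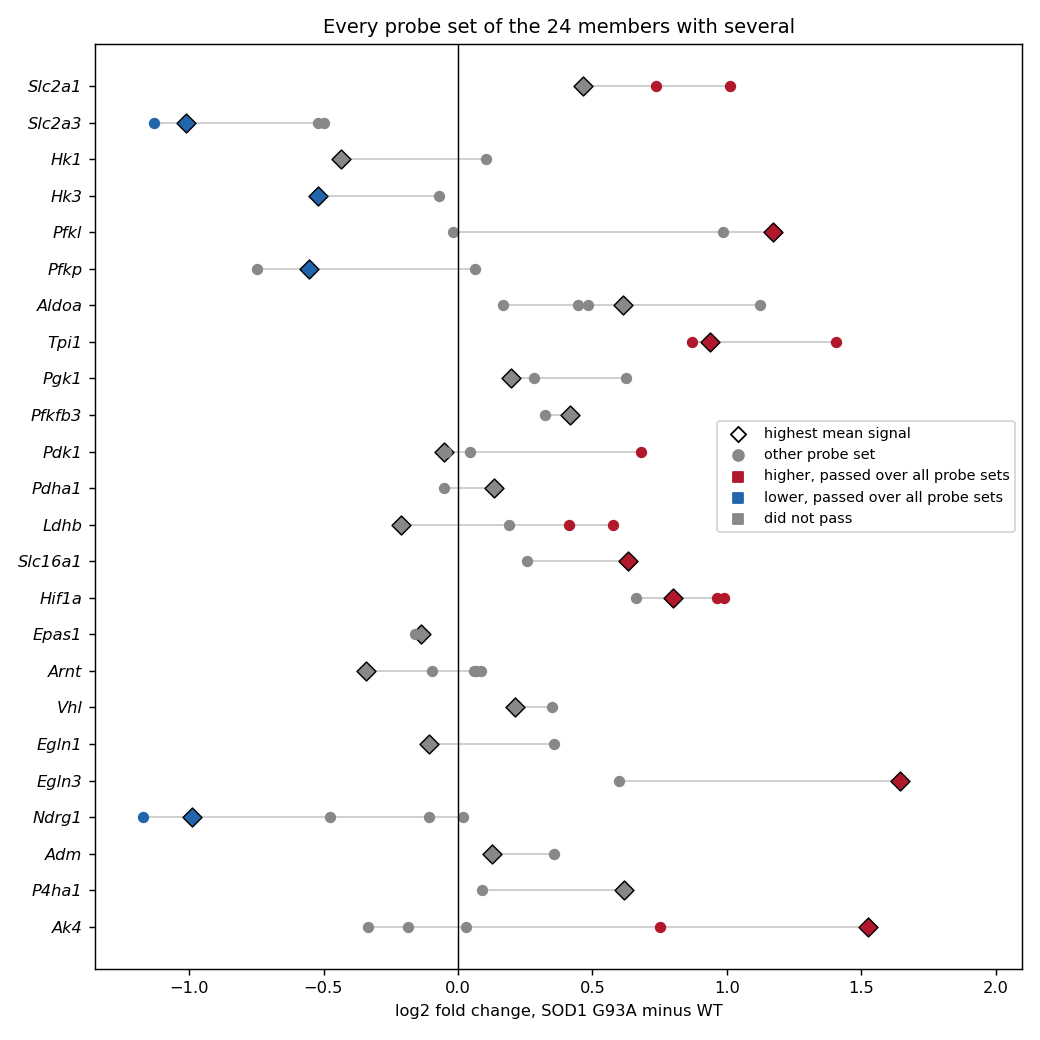
Log2 fold change, SOD1 G93A minus WT, on the horizontal axis for every probe set of the 24 members that have several. Diamonds mark the brightest probe set of each gene and circles the others, red for higher and blue for lower at an adjusted p under 0.05 over all probe sets, and grey for those that did not pass. The probe sets of *Tpi1* and *Hif1a* all lie to the right of 0, and those of *Ak4* and *Pfkl* lie on both sides.

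Over the whole set, the 37 members had 86 probe sets of their own. Besides the brightest of each gene there were 49 others, in 24 members, and 10 of these passed as higher and 2 as lower over all probe sets. In 14 of the 24 members all probe sets had the same sign, and in 10 they had both signs. Among genes that passed, *Tpi1*, *Hif1a*, *Egln3*, *Slc16a1*, *Slc2a3* and *Hk3* kept 1 sign over their probe sets, whereas *Pfkl*, *Pfkp*, *Ak4* and *Ndrg1* did not. For *Hk3* the other probe set, at -0.07, showed no detectable fall. *Slc2a1*, *Pdk1* and *Ldhb* did not pass on the brightest probe set but had another that did. Further probe sets of *Hk1* (0.10), *Pfkfb3* (0.33), *Pdha1* (-0.05), *Slc16a1* (0.26), *Vhl* (0.35) and *Adm* (0.36) did not pass. The positions of probe sets on the transcripts are not used here.

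The SOD1 G93A arrays did not carry the rises to the same degree. Relative to each gene's mean over the 6 arrays, the median of the 6 genes that rose was 0.30, 0.59 and 0.80 on SOD1 G93A arrays 1 to 3, against -0.55, -0.48 and -0.45 on the WT arrays. In 6 of these 6 genes, SOD1 G93A replicate 1 was the mutant array closest to the WT mean. In the 4 genes that fell, that array was SOD1 G93A replicate 1 in 1, replicate 2 in 1 and replicate 3 in 2.

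**Figure D4:**
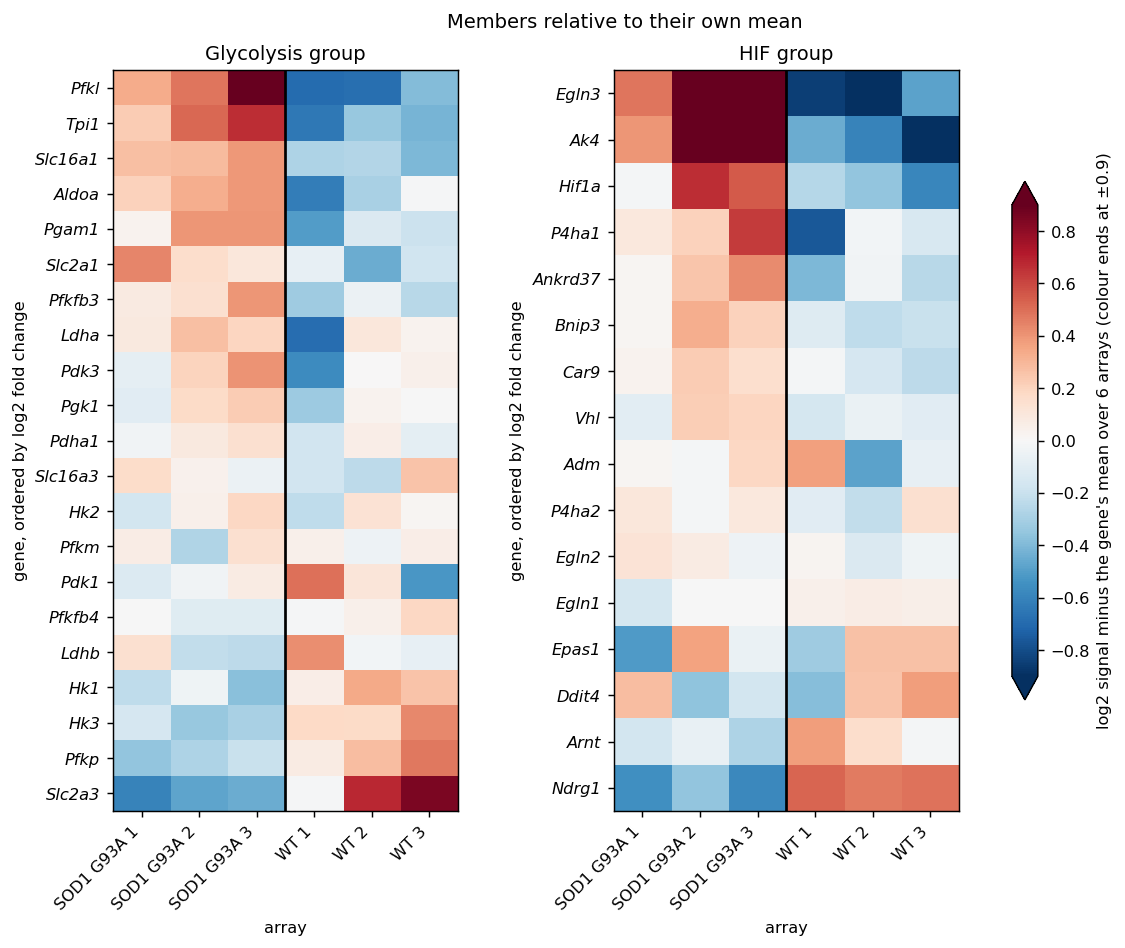
Log2 signal minus the gene's mean over 6 arrays, as colour (red above and blue below the mean, with colours ending at 0.9 log2 units either way), for each gene of the glycolysis group (left) and the HIF group (right), ordered by log2 fold change, with the 3 SOD1 G93A arrays to the left of the black line and the 3 WT arrays to the right of it. The 6 genes that rose are redder on SOD1 G93A arrays 2 and 3 than on array 1, and the 4 that fell are blue on all 3.

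Other measures differed between the genotypes as well. The counts of markers that passed are to be read beside all genes, of which 4.09% were higher and 2.53% lower. The microglial markers, 1 of 11 higher and 1 lower, gave a log2 of the summed signal between 15.72 and 15.84 on the SOD1 G93A arrays, against 15.69 to 15.79 on the WT arrays, all 11 with a mean signal above 5. This sum was carried by *Csf1r* and *Cx3cr1*, whose mean log2 signals of 14.35 and 13.58 in SOD1 G93A and 14.39 and 13.62 in WT lay above 13, where a change can be compressed, so that it says little about stability. All sums that follow are likewise the log2 of signals summed before the log. Astrocyte markers, 5 of 14 lower and 0 higher, summed to between 10.27 and 10.998 on the SOD1 G93A arrays, against 11.33 to 12.36 on the WT arrays. Neurone markers, 6 of 14 lower and 1 higher, summed to between 9.54 and 9.75 on the SOD1 G93A arrays, against 10.56 to 10.76 on the WT arrays, and 5 of the 14 had a mean signal below 5. The sum of the border macrophage markers lay between 12.49 and 12.82 on the SOD1 G93A arrays, against 13.46 to 13.71 on the WT arrays, that of the monocyte markers between 12.84 and 13.66 on the SOD1 G93A arrays, against 13.71 to 14.50 on the WT arrays, and that of the neutrophil markers between 15.70 and 16.21 on the SOD1 G93A arrays, against 16.03 to 16.72 on the WT arrays. The neutrophil sum, too, was carried by markers above 13, where a change can be compressed. Mean log2 signals were 14.14 in SOD1 G93A and 14.49 in WT for *S100a8*, and 14.00 and 14.37 for *S100a9*. On the WT arrays this sum lay above that of the microglial markers, so that the RNA called microglial here held neutrophil transcripts as well. Endothelial and mural markers, 1 of 13 higher and 0 lower, summed to between 9.88 and 10.23 on the SOD1 G93A arrays, against 9.94 to 9.99 on the WT arrays. The part of these cells in the changes of the glycolysis and HIF genes was not tested.

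Of 2 measures of RNA quality, 1 differed between the genotypes without overlap. The log2 signal of the 3′ minus the 5′ control probe set of *Gapdh*, itself a glycolytic gene, was 4.63, 4.28 and 3.47 on the SOD1 G93A arrays, against 5.01, 4.79 and 4.87 on the WT arrays (exact two-sided permutation p = 0.1, the smallest possible). The same difference for beta-actin was 3.36, 2.75 and 1.92 on the SOD1 G93A arrays, against 3.88, 2.90 and 3.49 on the WT arrays, with overlap (exact two-sided permutation p = 0.2). With the *Gapdh* difference as a covariate 0 of the 10 calls among members held in limma's test, and each kept its sign. At an unadjusted p under 0.05, 10 of the 37 members passed, 6 higher and 4 lower. The share of all genes at that level is not given for this fit, so that these counts have no baseline. Among the rises the log2 fold change was then 1.43 for *Egln3* (adjusted p = 0.0745 from limma), 1.28 for *Ak4*, 0.77 for *Pfkl*, 0.65 for *Tpi1*, 0.55 for *Slc16a1* and 0.53 for *Hif1a*, each smaller than without the covariate. Among the falls it was -0.93 for *Ndrg1* (adjusted p = 0.0566 from limma) and -0.46 for *Hk3*, and larger in size for *Slc2a3* (-1.19) and *Pfkp* (-0.68). Over all genes 94 passed in place of 1206. In this fit genotype and RNA quality could not be fully told apart, since the genotypes did not overlap in the covariate. The arrays numbered 1 stood apart from the others along the second principal component, which held 25.8% of the variance, and without both of them 5 genes of the glycolysis group passed as higher in place of 3, and 2 of the HIF group passed as lower in place of 1. Over all genes that fit called 1005 rises and 837 falls, in place of 745 and 461.

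The other genes of the same pathways were taken from 6 lists by name. Their counts are to be read beside all genes, of which 4.09% were higher and 2.53% lower. Of 12 measured further genes of glycolysis, 1 was higher and 2 were lower, with a median log2 fold change of 0.05. *Eno2*, the enolase of neurones, was higher by 0.72 (adjusted p = 0.0283 from limma), opposite to the other neurone markers that passed. *Aldoc*, the aldolase of astrocytes, measured 9.15, 8.27 and 8.14 on the SOD1 G93A arrays, against 10.24, 9.71 and 9.60 on the WT arrays, a log2 fold change of -1.33 (adjusted p = 0.0237 from limma). Of the 14 astrocyte markers, 5 were lower too, 0 were higher and 9 did not pass. Among those 9, *Gfap* (0.33) and *Aldh1l1* (0.06) had positive log2 fold changes. *Bpgm*, which makes a regulator of oxygen release by haemoglobin, had -0.60 (adjusted p = 0.0166 from limma), and *Pkm*, pyruvate kinase, had 0.64 without passing (adjusted p = 0.206 from limma).

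Of 10 further transporters of glucose and monocarboxylates, 2 were higher and 1 lower. *Bsg*, which encodes basigin, the chaperone that brings MCT1 and MCT4 to the cell surface, measured 9.01, 8.88 and 8.99 on the SOD1 G93A arrays, against 7.88, 7.93 and 7.97 on the WT arrays. The genotypes were far apart, with a log2 fold change of 1.03 (SE 0.10, adjusted p = 0.00158, limma). *Slc2a6*, a transporter of the glucose transporter family found in leukocytes, was higher by 0.97 (adjusted p = 0.00828 from limma), and *Slc2a5*, a fructose transporter typical of microglia, was lower, with a log2 fold change of -0.57 (adjusted p = 0.0294 from limma). Of 9 further genes of pyruvate entry to mitochondria 0 passed in limma's test, with 3 at an unadjusted p under 0.05, all higher. Of 7 genes of the pentose phosphate pathway, which draws sugar off for NADPH, 1 was lower, *Pgd*, with -0.50 (adjusted p = 0.026 from limma).

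Among 29 further HIF targets, 5 were higher and 0 lower, with a median log2 fold change of 0.20. Over all genes 4.09% were higher and 2.53% lower, with a median of 0.02. Each target was read from its brightest probe set, and other probe sets of these genes are not given. *Mif*, which encodes a macrophage cytokine, measured 10.74, 10.68 and 10.79 on the SOD1 G93A arrays, against 8.82, 8.81 and 8.80 on the WT arrays. Its log2 fold change of 1.93 (SE 0.10, adjusted p = 4.14e-05, limma) exceeded that of *Egln3*. *Lox*, a collagen cross-linking oxidase, was higher by 1.78 (adjusted p = 0.00181 from limma), *Bhlhe40*, a transcriptional repressor, by 1.25 (adjusted p = 0.0208 from limma), and *Rragd*, a small GTPase of amino acid signalling to mTORC1, by 1.15 (adjusted p = 0.0305 from limma). The fifth was *Fam162a*, a mitochondrial protein of the answer to low oxygen, named after its values were seen, at 0.79 (adjusted p = 0.0117, limma). These genes answer to other signals besides HIF. Of 13 further regulators of HIF, 1 was lower, the co-activator *Ep300*, with -0.53 (adjusted p = 0.0301 from limma), and the median was -0.11.

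**Figure D5:**
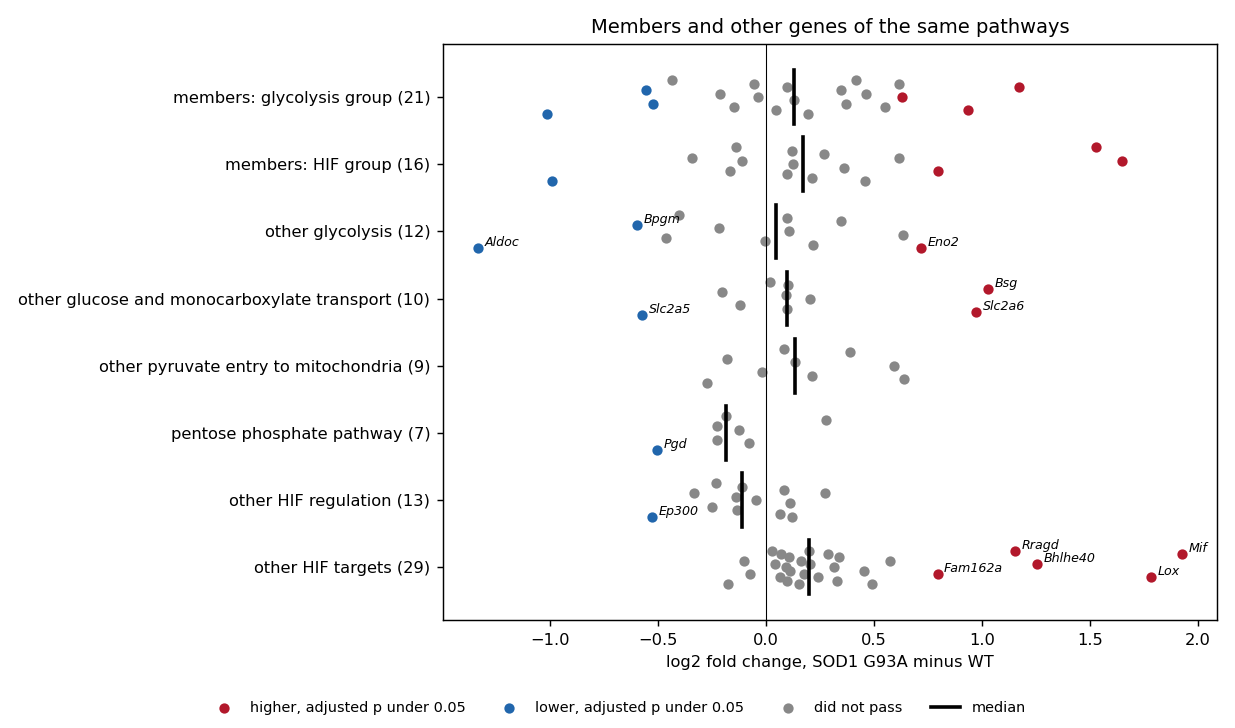
Log2 fold change, SOD1 G93A minus WT, on the horizontal axis for the members of both groups and for the genes of 6 further lists of the same pathways, 1 point per gene, with the number of genes measured in brackets and the median as a black bar. Red points were higher and blue points lower at an adjusted p under 0.05, and genes that passed in the further lists are named. The medians lie between -0.18 (pentose phosphate pathway) and 0.20 (other HIF targets), with single genes far from them.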

How the data were processed

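The 6 Affymetrix mouse arrays, 3 of SOD1 G93A and 3 of WT, cover RNA of sorted microglia. Log2 signals of each probe set were deposited by the authors, normalised by RMA in Partek per the submitters' processing notes, which give no version. The methods of the paper name MAS 5.0 instead, and describe a double amplification of RNA where the labels describe the standard protocol. Of 45037 probe sets other than controls, 34945 have 1 gene symbol in the platform annotation, 932 several and 9160 none.

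All genes were fitted in limma 3.58.1 (lmFit and eBayes, R 4.3.3) with a genotype term, 1 probe set per gene, and Benjamini-Hochberg adjustment over 18193 genes, or over all probe sets where so stated. Same-numbered arrays deviated together in part (correlations 0.44, 0.24 and 0.04), and both arrays numbered 1 stood apart from the rest. The paper states that litters were matched between the groups. Whether the numbers mark pairs is not known, and the main fit holds no block for them. The scripts were tested on simulated data, and Python 3.11.15 served for promoters and figures.

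The members given array by array are those that passed, those with an absolute log2 fold change of at least 0.5, and *Hif1a*, *Epas1*, *Egln1*, *Egln3*, *Hk2*, *Slc2a1*, *Ldha* and *Pfkfb3*. Of each further list up to 4 passing genes are named, and *Fam162a* besides. Among these, array values are given for *Aldoc*, *Bsg* and *Mif* only. Members and lists were chosen with earlier results of these data known. The alternatives were the methods' t-test on the same values, at their thresholds (1.75-fold and p under 0.05, unadjusted) or after adjustment, eBayes with trend and robust, other choices of the probe set for a gene, a minimum mean signal of 5 or 7, median-centred and quantile-normalised arrays, array weights, a replicate block, the *Gapdh* covariate, and arrays left out. A suffix s_at or x_at marks probe sets that can cross-hybridise with other genes, whereas a_at marks those shared by transcripts of the same gene. The setting without suffixed probe sets drops all of these where a gene has others, so that it also drops gene-specific a_at probe sets. No filter on low signal was used in the main fit. The number of arrays limits the precision. Detection calls and the paper's other experiments are not analysed here.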

Additional observations from a re-analysis of the deposited data

How the results depend on the processing

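The 6 rises and 4 falls among members were compared with 19 alternatives, which covered the members and not the further pathway genes. Counts are given first for rises in the glycolysis group (3), falls in it (3), rises in the HIF group (3) and falls in it (1). After Benjamini-Hochberg adjustment the methods' t-test called 0, 0, 0 and 0 of these (unadjusted 6, 3, 6 and 1), and 0 of all 18193 genes, of which 254 met its unadjusted thresholds as higher and 170 as lower. At these thresholds it called 0 falls in the glycolysis group but the 5 genes *Pfkl*, *Tpi1*, *Egln3*, *Ak4* and *Ndrg1*. With the *Gapdh* covariate limma called 0, 0, 0 and 0 too (unadjusted 4, 3, 2 and 1). The share of all genes at an unadjusted p under 0.05 is not given for either fit, so that these unadjusted counts have no baseline. Rises in the glycolysis group numbered 5 with a minimum mean signal of 5, 5 with array weights and 5 without both arrays numbered 1, and 2 to 4 with 1 array left out. Falls there numbered 1 without suffixed probe sets and 0 to 3 with 1 array left out. Rises in the HIF group numbered 5 with array weights and 2 to 3 with 1 array left out, and falls there numbered 2 without both arrays numbered 1 and stayed at 1 with any 1 array left out. Over all genes, 745 rises became 876 with a minimum mean signal of 5 (among 14063 genes), 1088 with array weights and 1005 without both arrays numbered 1. The 461 falls over all genes became 373 without suffixed probe sets and 837 without both arrays numbered 1. With 1 array left out there were 255 to 719 rises and 103 to 539 falls over all genes. The median log2 fold change of the glycolysis group, 0.13, became 0.24 with the mean of all probe sets and 0.0063 with the *Gapdh* covariate, and lay between 0.082 and 0.24 with 1 array left out. That of the HIF group, 0.17, became 0.26 with the mean of all probe sets and 0.33 without both arrays numbered 1, and lay between 0.15 and 0.26 with 1 array left out.

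The sign reversed for *Pfkl* (-0.017) and *Ak4* (-0.33) without suffixed probe sets, for *Egln1* (0.12) with the mean of all probe sets, for *Epas1* (0.083) without SOD1 G93A replicate 1, in a range of -0.35 to 0.083 with 1 array left out, and for *Hk2* with the *Gapdh* covariate (-0.20), without SOD1 G93A replicate 3 (-0.033) and without WT replicate 1 (-0.053), in a range of -0.053 to 0.14. The mean of all probe sets ended the calls of *Hk3*, *Pfkl* and *Ak4*, leaving out suffixed probe sets those of *Slc2a3* and *Hk3* besides the reversed genes, and *Aldoa* and *Pgam1* passed under 7 and 8 alternatives. Calls of *Pfkl*, *Tpi1*, *Egln3*, *Ndrg1* and *Ak4* held in all 6 fits without 1 array, with adjusted p from limma up to 0.0326, 0.0437, 0.0233, 0.016 and 0.0422. Of the 6 arrays, 3 correlated best with their own number, so that a pairing by number remains uncertain. A replicate block called 6 rises in the glycolysis group, *Slc2a1* on its brightest probe set among them (adjusted p = 0.0309 from limma), and 5 in the HIF group. Over all genes it called 1238 rises and 983 falls in place of 745 and 461. The cause of these changes was not tested. With 3 arrays per genotype, small changes remain undetectable, and signals near 5 are close to background.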
